A study of Mus musculus with 2 samples.

Results

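Lgr5, Prom1 and Cd44 are 3 genes widely used as stem cell markers, and they were taken by name from the 479 genes of a Xenium In Situ panel (Ensembl ENSMUSG00000020140, ENSMUSG00000029086 and ENSMUSG00000005087). Xenium reads out the position of individual transcripts on a slide by repeated probe imaging, and each barcode of the files stands for 1 segmented cell. The data hold 1 section of an RKP tumour and 1 section of an EKP tumour, both grown subcutaneously from cultured cells and labelled as diffuse gastric cancer. RKP cells and EKP cells were each injected with Matrigel, on both flanks, into C57BL/6 mice 5 weeks old, and tumours were collected at like final volumes. The listed dose was the same for both lines, at 3 x 1000000 cells. Both tumours were set in 1 paraffin block on 1 slide, and the labels do not spell out the alleles behind either name. The labels give neither the number of mice behind the block nor which line carries the mutant RHOA of the study's title. The tumours grew under the skin and not in the stomach, in hosts whose own immune and stromal cells entered the section. The study concerns cell lineage plasticity in diffuse gastric cancer, and the comparison here asks how stem-associated genes stand with epithelial markers in each tumour.

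With 1 section per group no test between the tumours was possible, so every value describes these sections, and a difference was counted at 1.5-fold, which is a rule of size. Intervals are 95% and cover counting error only. The RKP file held 255744 barcodes with 44294494 gene counts, and the EKP file held 261111 barcodes with 31597828 gene counts. Barcodes with 80 or more gene counts were used, 201447 in RKP (median 185 gene counts) and 133173 in EKP (median 191). Negative control probes, which match no mouse RNA, gave 15.7 counts per 1000000 gene counts in RKP and 50.1 in EKP. The 2 files shared 19 barcode names, and 0 of these had identical counts. Barcodes with 3 or more counts of Krt8, a keratin of simple epithelia, numbered 109186 in RKP and 64022 in EKP, and were split by their count of Epcam, an epithelial adhesion molecule. In RKP 26948 barcodes had 0 to 1 Epcam counts, 14335 had 2 to 4 and 67903 had 5 or more. In EKP the numbers were 15785, 8103 and 40134. Most of these barcodes also held host markers: 2 or more different markers of immune, vascular or connective tissue cells were present in 81.9%, 82.7% and 77.5% of the RKP barcodes along the 3 Epcam classes, and in 89.7%, 87.5% and 78.9% of the EKP barcodes. The part of such mixed RNA in the results was not tested, and values without those barcodes are given where they moved a ratio by over 1.5 times. One of the markers, the neutrophil gene Ly6g, stood at 3206 counts per 1000000 gene counts in RKP and 2403 in EKP at Epcam 5 or more. In the neutrophil-gated barcodes described below it stood at 897 and 900. Barcodes that reached 2 markers through Ly6g were not counted apart, and values without host-marker barcodes leave them out too. A further choice reads Krt8 and Epcam from counts thinned to 80 per barcode, which gives the gates an equal depth.

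Lgr5 is a receptor for R-spondins, secreted proteins that amplify WNT signalling, and it is itself a WNT target gene. It marks cycling stem cells of the intestine, the gastric gland base and the hair follicle. Prom1 encodes prominin-1 (CD133), a membrane protein of apical protrusions in many epithelia. Cd44 encodes a receptor for hyaluronan that many epithelial, mesenchymal and immune cells carry, and its RNA is spliced in many forms that the panel does not tell apart. All 3 genes have been used to enrich tumour-initiating cells, although none of them is restricted to such cells.

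Prom1 and Cd44 were found in the RefSeq promoter table (GRCm38.p6), and the 250 bases before their starts are shown because Lgr5 and Axin2, both WNT targets, are set beside these genes below. Capitals mark CTTTG or CAAAG, the core letters bound by TCF/LEF factors on either strand.
Prom1, chr5:44101737-44101986, minus strand: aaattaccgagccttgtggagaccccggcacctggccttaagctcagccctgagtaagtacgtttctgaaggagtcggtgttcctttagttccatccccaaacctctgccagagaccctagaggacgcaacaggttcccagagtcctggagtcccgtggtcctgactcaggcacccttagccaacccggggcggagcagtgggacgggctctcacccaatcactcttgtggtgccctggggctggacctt
Cd44, chr2:102901666-102901915, minus strand: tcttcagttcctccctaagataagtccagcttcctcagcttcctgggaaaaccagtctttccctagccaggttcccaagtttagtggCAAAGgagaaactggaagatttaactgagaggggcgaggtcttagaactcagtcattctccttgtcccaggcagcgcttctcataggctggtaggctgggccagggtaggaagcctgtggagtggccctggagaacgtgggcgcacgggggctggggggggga
The Prom1 window held 0 matches, as did the window of a second Prom1 start. The Cd44 window held 1, which began 163 bases before the start. Of all 32851 windows of this length 48.6% held a match.

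Lgr5 was far higher in the RKP tumour than in the EKP tumour in barcodes rich in both Krt8 and Epcam. With Epcam at 5 or more its level was 1846 CPM (counts per 1000000 gene counts) in RKP (interval 1827 to 1866, 67903 barcodes), against 323 CPM in EKP (313 to 334, 40134 barcodes). The ratio of RKP over EKP was 5.71 (5.52 to 5.91), and without barcodes carrying 2 or more host markers it was 9.22. When every barcode was thinned to 80 gene counts, 12.5% of the RKP barcodes and 2.11% of the EKP barcodes kept an Lgr5 count. Unthinned, the shares were 29.4% at a median of 249 gene counts and 6.38% at a median of 268. Cut into 10 equal parts in file order, the RKP section gave 1285 to 2183 CPM and the EKP section 124.8 to 583 CPM, so that no part of EKP reached the lowest part of RKP. Such parts were not computed for other panel genes, so the share of genes without overlap is not known. Most positive barcodes carried few molecules: in RKP 18.2% of barcodes had 1 Lgr5 count and 0.928% had 5 to 9, while in EKP 4.78% had 1 and 0.0922% had 5 to 9.

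The ratio of Lgr5 between the tumours was smaller at lower Epcam. At Epcam 2 to 4 its level was 755 CPM in RKP and 237 CPM in EKP, a ratio of 3.18 (2.85 to 3.56). That ratio was 7.22 without host-marker barcodes (1946 and 269 CPM), 6.12 with gates on thinned counts (1729 and 282 CPM) and 2.03 with a minimum of 160 gene counts. Over the 10 parts of the file the tumours overlapped at Epcam 2 to 4, at 500 to 1177 CPM in RKP and 103 to 627 CPM in EKP. With 0 to 1 Epcam counts Lgr5 was 203 CPM in RKP and 273 CPM in EKP, a ratio of 0.743 (0.682 to 0.811) that missed the limit. This last value changed direction under other choices of barcodes, and with a minimum of 160 gene counts it passed the limit at 0.640. Without barcodes carrying 2 or more host markers, 4883 RKP barcodes gave 265 CPM and 1621 EKP barcodes gave 118 CPM, from 217 and 31 counts, and the log2 ratio turned to 1.17 where it had been -0.43. With Krt8 and Epcam read from the thinned counts the log2 ratio there was 1.79, at 701 CPM in RKP and 203 CPM in EKP.

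Within the RKP tumour Lgr5 followed Epcam, and within the EKP tumour it passed the limit only under some choices of barcodes. In RKP it stood 9.11 times higher at Epcam 5 or more than at Epcam 0 to 1 (8.59 to 9.67), and in EKP 1.19 times higher (1.10 to 1.27), below the limit. With gates on thinned counts the RKP ratio was 2.72, and the RKP levels along the 3 Epcam classes were 701, 1729 and 1906 CPM. In RKP without host-marker barcodes they were 265, 1946 and 2260 CPM. Without host-marker barcodes the EKP ratio was 2.08, from 31 counts at Epcam 0 to 1, and with Krt8 at 6 or more it was 1.70, both past the limit. Along single Epcam counts the RKP level was 174 CPM at 0, 539 CPM at 2, 1206 CPM at 5 and 2012 CPM at 20 or more. The EKP level stayed between 221 and 370 CPM over all 10 classes.

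**Figure D1:**
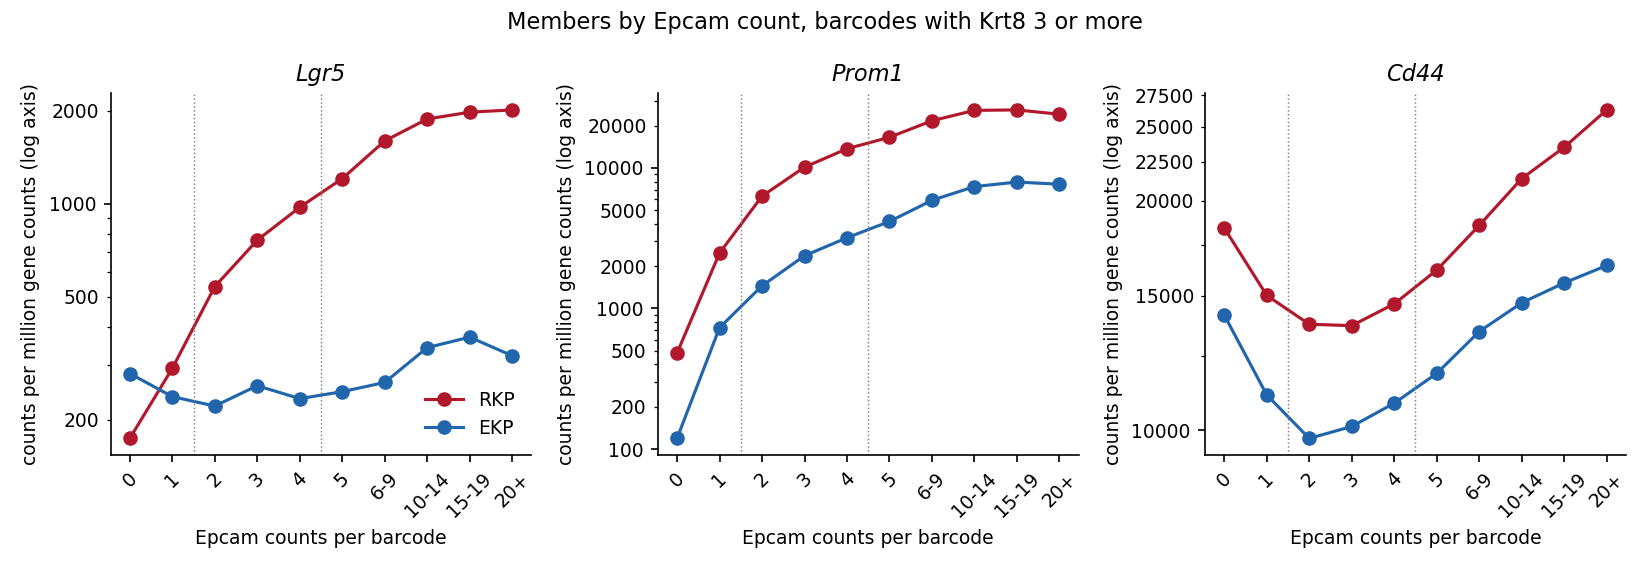
Level of each member in counts per 1000000 gene counts (log vertical axes) against the Epcam count of the barcode, among barcodes with 3 or more Krt8 counts and 80 or more gene counts, with RKP in red and EKP in blue and dotted lines at the class limits. Lgr5 climbed from 174 to 2012 CPM in RKP and stayed at 221 to 370 CPM in EKP, Prom1 climbed in both, and Cd44 was lowest at 2 to 3 Epcam counts in both. Epcam counts are unthinned here, and barcodes with host markers are included.

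Prom1 was higher in RKP than in EKP in every Epcam class, and higher at Epcam 5 or more than at Epcam 0 to 1 in both tumours by a factor that depended on how the gates were read. At Epcam 0 to 1, 2 to 4 and 5 or more it stood at 966, 9980 and 23977 CPM in RKP, against 245, 2305 and 7183 CPM in EKP. The ratios of RKP over EKP were 3.94 (3.67 to 4.24), 4.33 (4.18 to 4.48) and 3.34 (3.31 to 3.36). After thinning, 78.3% of RKP barcodes and 36.2% of EKP barcodes at Epcam 5 or more kept a Prom1 count. The 10 parts of the file gave 21370 to 27825 CPM in RKP and 4088 to 9920 CPM in EKP. These ranges did not overlap, nor did those at Epcam 2 to 4, at 6901 to 13793 CPM in RKP and 1128 to 3564 CPM in EKP. At Epcam 0 to 1 they overlapped, at 328 to 5490 CPM in RKP and 42.0 to 1390 CPM in EKP. The share of panel genes without overlap was not counted. From Epcam 0 to 1 up to Epcam 5 or more the level was 24.8 times higher in RKP (24.2 to 25.5) and 29.3 times higher in EKP (27.4 to 31.4). With gates on thinned counts it was 3.14 times higher in RKP (25319 against 8070 CPM) and 2.99 times in EKP (6947 against 2322 CPM), and with Krt8 at 6 or more the EKP ratio was 44.8. At Epcam 2 to 4 the level on thinned counts was already 23797 CPM in RKP and 6958 CPM in EKP. Without host-marker barcodes Prom1 at Epcam 2 to 4 was 23579 CPM in RKP, against 30833 CPM at 5 or more. In EKP those levels were 4906 and 7635 CPM. By the ratio with unthinned gates Prom1 ranked 6th of 427 genes in RKP and 2nd of 472 in EKP. Epcam, which sets these classes, was ranked too and stood above Prom1 in both.

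Cd44 was the most evenly spread of the 3 genes. At Epcam 0 to 1, 2 to 4 and 5 or more its level was 17588, 14043 and 22404 CPM in RKP, against 13529, 10225 and 15129 CPM in EKP. The ratios of RKP over EKP were 1.30, 1.37 and 1.48, all under the limit, and the last had an interval of 1.47 to 1.49. With gates on thinned counts the last ratio was 1.57, past the limit. In both tumours the level was lowest in the middle class, but this order depended on the gates. On thinned counts the level rose along the 3 classes, at 18418, 21233 and 24385 CPM in RKP and at 14148, 14642 and 15573 CPM in EKP. It stood at 18409 CPM in RKP barcodes without Epcam, 13713 CPM at 3 Epcam counts and 26296 CPM at 20 or more. In EKP barcodes the same classes held 14156, 10116 and 16443 CPM. After thinning, 80.4% of RKP barcodes and 67.2% of EKP barcodes at Epcam 5 or more kept a Cd44 count, and at Epcam 0 to 1 the shares were 71.6% and 61.8%. As counts per barcode, Cd44 at Epcam 5 or more was 1.63 times that at Epcam 0 to 1 in RKP, past the limit.

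Counted together, 2 of the 3 members (Lgr5 and Prom1) were 1.5-fold or more higher in RKP over all barcodes, where 23% of the panel genes tested were higher and 34.2% lower. Over all barcodes the levels of Lgr5 were 1053 CPM in RKP and 483 CPM in EKP, those of Prom1 11852 and 3158 CPM, and those of Cd44 16837 and 11675 CPM. The Lgr5 ratio over all barcodes, 2.18, was 7.18 without host-marker barcodes. Among Krt8 barcodes the members past the limit were 1 of 3 at Epcam 0 to 1 (Prom1), 2 of 3 at Epcam 2 to 4 and 2 of 3 at Epcam 5 or more, against 19.3%, 21.2% and 21.7% of the genes tested. None of the 3 was 1.5-fold or more lower in RKP in these classes, where 41.1%, 39.6% and 40.9% of genes were. The median log2 ratio of all tested genes at Epcam 5 or more was -0.32. Between the Epcam classes, 2 of 3 members passed the limit upward in RKP (Lgr5 and Prom1, with 20.4% of genes) and 1 of 3 in EKP (Prom1, with 14.8% of genes). No member passed it downward, where 55.3% of genes did in RKP and 59.7% in EKP. Without barcodes carrying host markers this EKP count was 2, as Lgr5 then passed the limit.

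**Figure D2:**
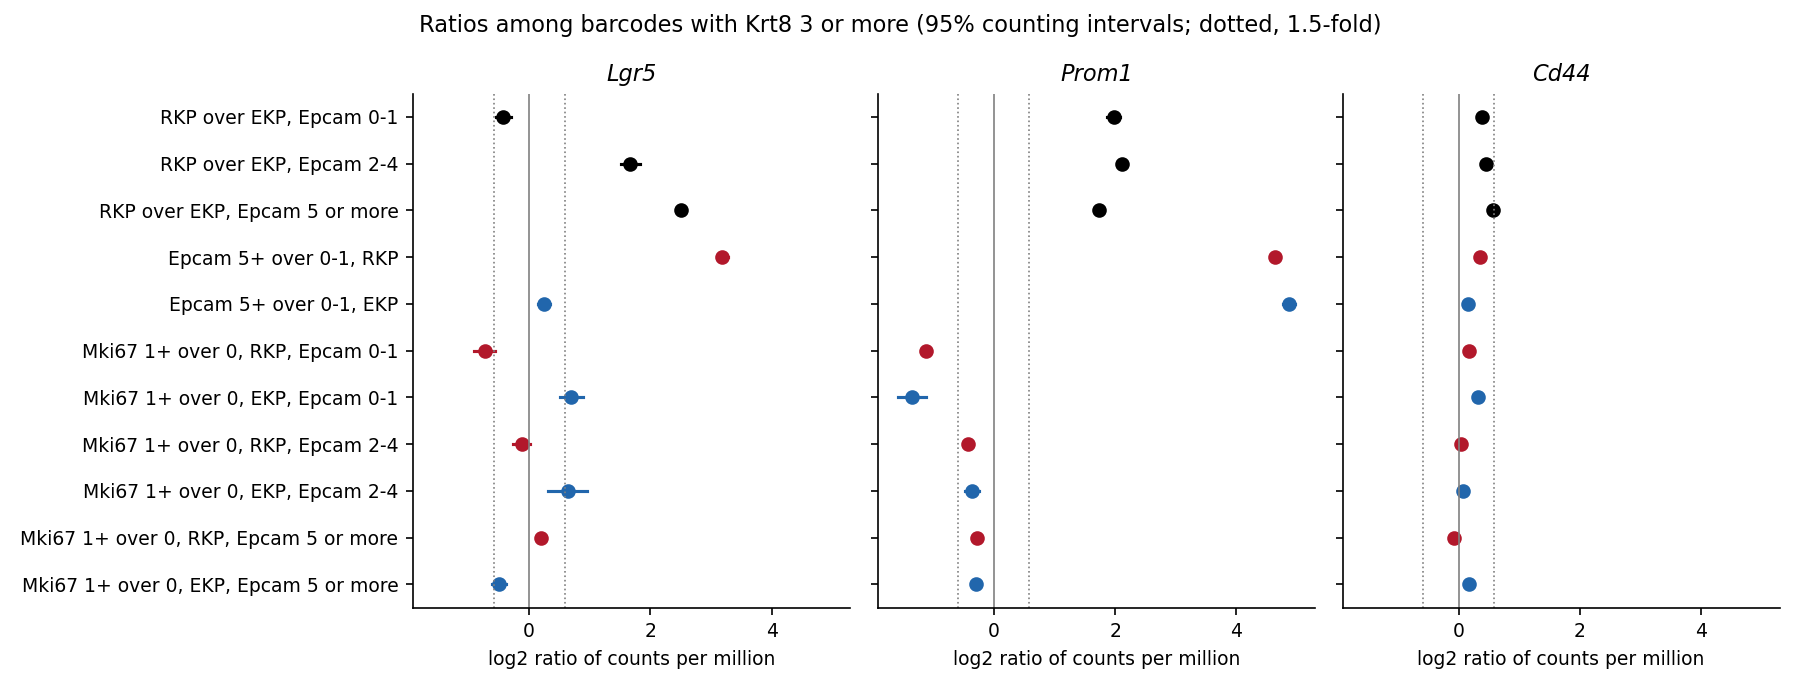
Log2 ratios of CPM for each member among barcodes with 3 or more Krt8 counts, with 95% counting intervals as bars, dotted lines at 1.5-fold, black for RKP over EKP, red for contrasts within RKP and blue for contrasts within EKP. The ratio of RKP over EKP for Lgr5 runs from -0.43 at Epcam 0 to 1 to 2.51 at Epcam 5 or more, while that of Prom1 stays between 1.74 and 2.11 and that of Cd44 between 0.38 and 0.57.

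Lgr5 counts lay mostly in Epcam-rich barcodes in RKP, while in EKP the largest share lay in barcodes without Krt8. Barcodes at Epcam 5 or more held 76.0% of the Lgr5 counts in RKP and 26.4% in EKP, while barcodes with 0 Krt8 held 10.2% in RKP and 48.4% in EKP. Of all gene counts, barcodes with 0 Krt8 held 19.9% in RKP and 26.4% in EKP. Prom1 lay in the Epcam-rich barcodes of both tumours, with 87.7% of its counts in RKP and 89.6% in EKP. For Cd44 the same class held 57.7% in RKP and 51.1% in EKP, beside 43.3% and 39.4% of all gene counts.

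**Figure D3:**
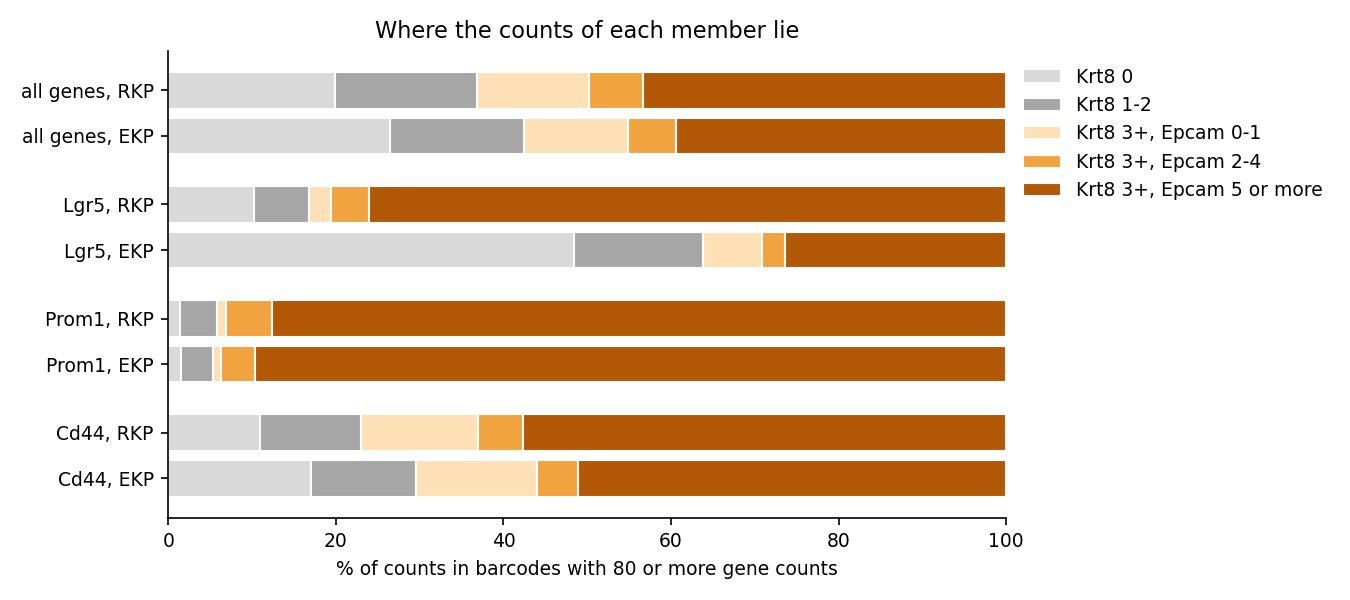
Share of the counts of all genes and of each member that lay in barcodes with 0 Krt8, 1 to 2 Krt8, and 3 or more Krt8 at each Epcam class, with the RKP bar above the EKP bar. The dark segment, Epcam 5 or more, holds 76.0% of Lgr5 counts in RKP and 26.4% in EKP, and the light grey one, 0 Krt8, holds 10.2% and 48.4%.

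Host barcodes were gated by 0 Krt8 and 2 or more different markers of 1 host class, with at most 1 marker of any other. Lgr5 was concentrated in those with fibroblast markers (Lum, Dpt, Pi16, Mfap5 and Col1a1) in both tumours. They held 1102 CPM in RKP (7741 barcodes) and 1442 CPM in EKP (8820 barcodes), a ratio of 0.764 (0.713 to 0.819), which passed the limit at 0.665 with a minimum of 160 gene counts. Of all genes tested in fibroblast-gated barcodes 32.7% were 1.5-fold or more higher in RKP and 20.7% lower, and Prom1 was the 1 member past the limit. Macrophage-gated barcodes held 172 and 115 CPM and endothelial-gated ones 67.1 and 112 CPM. The fibroblast-gated level was 6.40 times the macrophage-gated one in RKP (5.56 to 7.40) and 12.6 times in EKP (9.81 to 16.3), with 49.7% and 26.8% of genes 1.5-fold or more higher and 18.5% and 37.9% lower. Thinned shares in fibroblast-gated barcodes were 6.95% in RKP and 8.65% in EKP at median depths of 138 and 148, against 1.27% and 0.964% in macrophage-gated barcodes at 139 and 126. The 10 parts of the file gave 357 to 2450 CPM in RKP fibroblast-gated barcodes and 274 to 2033 CPM in EKP ones, so the tumours overlapped there. In the Krt8 barcodes at Epcam 0 to 1 the thinned Lgr5 shares, 1.57% in RKP and 1.69% in EKP, stood beside the macrophage-gated shares of 1.27% and 0.964%. The intervals overlapped in RKP (1.42% to 1.72%, against 1.05% to 1.53%) and did not in EKP (1.49% to 1.90%, against 0.686% to 1.32%). The part of RNA from other cells in the counts of that class was not tested. The EKP share at Epcam 5 or more, 2.11%, lay above the macrophage-gated share of EKP, 0.964%, and below the fibroblast-gated one, 8.65%.

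Set against host barcodes, Lgr5 went opposite ways in the tumours. Lgr5 in Krt8 barcodes over all host-gated barcodes was 2.52 times higher in RKP (2.40 to 2.65) and 0.326 times in EKP (0.310 to 0.343), which is on the lower side of the limit. At Epcam 5 or more over fibroblast-gated barcodes it was 1.68 times higher in RKP and 0.224 times in EKP, and per barcode 2.87 and 0.373 times. In that contrast 26.2% of genes were past the limit upward and 53.3% downward in RKP, and 29.5% and 41.8% in EKP. Prom1 in Krt8 barcodes over host-gated ones was 19.2 times higher in RKP and 25.4 times in EKP, and Cd44 was 2.16 times higher in RKP and 1.79 times in EKP. With gates on thinned counts the Prom1 ratios were 8.21 and 9.15, and as counts per barcode without scaling they were 30.9 and 41.8. Per barcode Lgr5 was 4.04 times higher in RKP and 0.537 times in EKP, and Cd44 was 3.47 and 2.95 times higher. All 3 members passed the limit upward in RKP, where 28% of genes did so and 53.6% went downward. In EKP 2 of 3 did so, where 25.2% of genes did, and Lgr5 passed it downward with 46.7% of genes.

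Prom1 in host-gated barcodes was also higher in RKP. Its level was 973 CPM in macrophage-gated, 764 CPM in fibroblast-gated and 844 CPM in endothelial-gated barcodes of RKP, against 251, 186 and 171 CPM in those of EKP. The ratio of RKP over EKP in fibroblast-gated barcodes was 4.10 (3.58 to 4.71), and in the Krt8 barcodes it was 3.34 to 4.33. The host gates leave out barcodes with Krt8 but not those with Epcam. Epcam in the same 3 host classes stood at 3006, 2991 and 2747 CPM in RKP, against 1908, 1726 and 1655 CPM in EKP. The part of tumour cell RNA in host-gated barcodes was not tested. Krt8 barcodes at Epcam 0 to 1 had thinned Prom1 shares of 7.27% in RKP and 2.43% in EKP, next to macrophage-gated shares of 6.53% and 1.75%. Within that class the shares were 3.77% in RKP and 1.23% in EKP without Epcam, and 18.5% and 6.79% at 1 Epcam count. At Epcam 5 or more they were 78.3% and 36.2%.

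Cd44 was present in every host class. Neutrophil-gated barcodes held 15157 CPM in RKP (892 barcodes) and 21238 CPM in EKP (436 barcodes), where they exceeded the tumour barcodes at Epcam 5 or more. Over the parts of the file the EKP ones ranged over 7591 to 25246 CPM, which spans the 12974 to 17326 CPM of those tumour barcodes. Macrophage-gated barcodes held 10216 and 9638 CPM, fibroblast-gated ones 9311 and 7687 CPM, and endothelial-gated ones 3601 and 2353 CPM, the lowest of the classes with 200 or more barcodes. Neighbours in this order overlapped over the parts of the file, since macrophage-gated barcodes ranged over 8049 to 12500 CPM in RKP and 6140 to 12269 CPM in EKP, and fibroblast-gated ones over 6585 to 13804 CPM in RKP and 6613 to 9880 CPM in EKP.

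**Figure D4:**
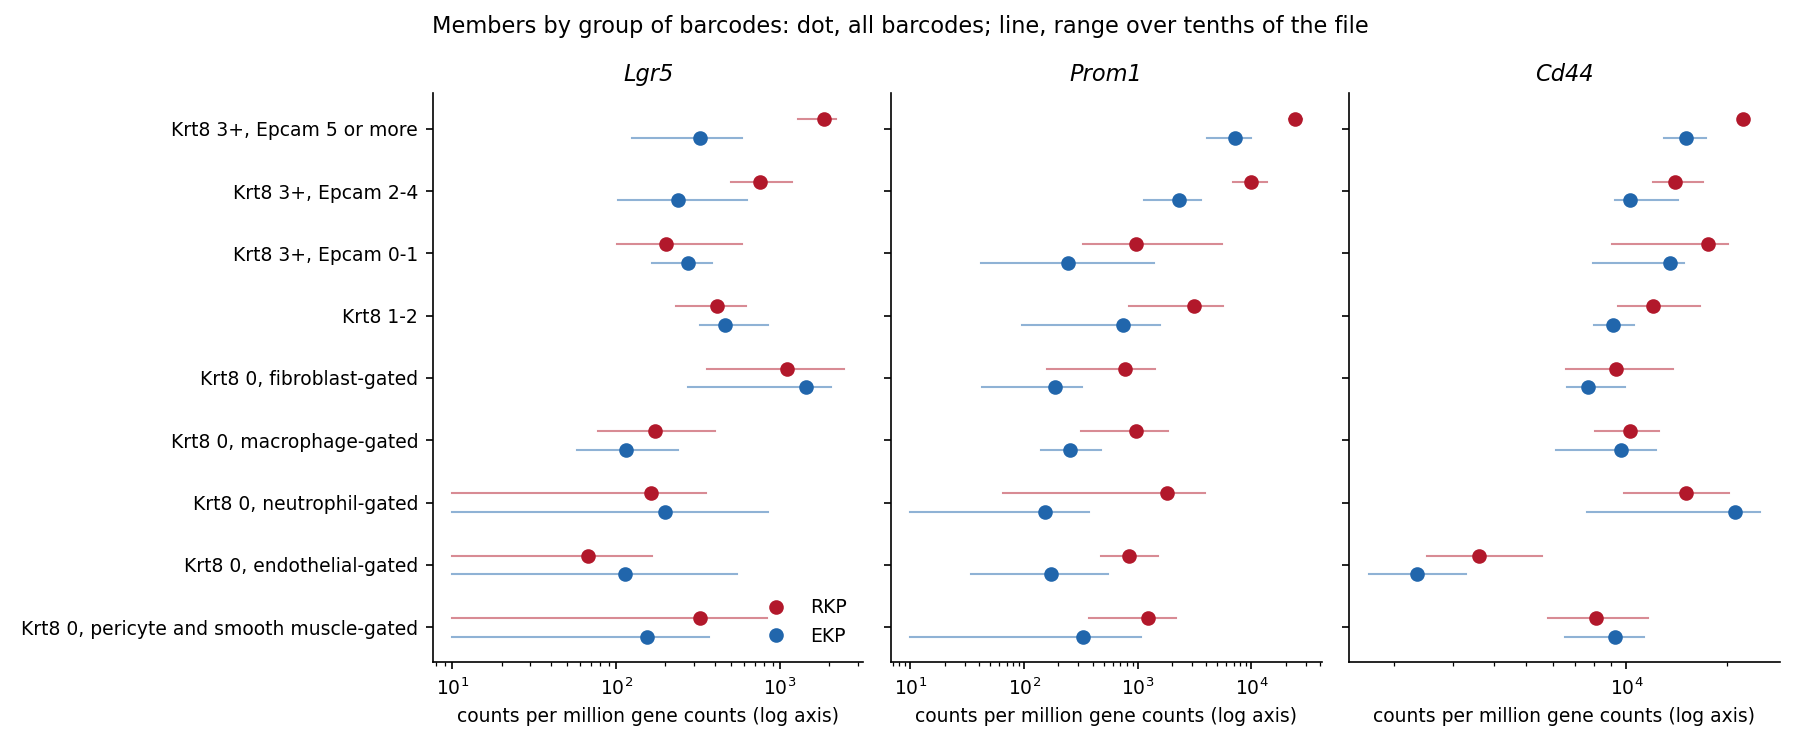
Level of each member in counts per 1000000 gene counts (log axes) by group of barcodes, with RKP in red above EKP in blue. Dots are all barcodes of the group, and lines span the lowest to the highest of up to 10 parts of the file, drawn from 10 CPM where the lowest was 0. Lgr5 in EKP is highest in fibroblast-gated barcodes at 1442 CPM, while in RKP the Epcam-rich tumour barcodes reach 1846 CPM.

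The genes that led in Lgr5-positive fibroblast-gated barcodes are given for each tumour, and the difference between the tumours was not tested. In RKP, the 538 with an Lgr5 count after thinning had more Lhx2 (1937 CPM, against 153 CPM in the 7203 without), Krt13 (1323 against 113 CPM), Tbx1 (1181 against 160 CPM) and Col17a1 (3047 against 602 CPM). Lhx2 and Tbx1 encode transcription factors of hair follicle stem cells, and Col17a1 encodes a collagen of basal keratinocytes. In EKP, the 763 positive ones had more Aqp5 (3046 against 1067 CPM), a water channel, Reg3g (1082 against 495 CPM), an antimicrobial lectin of epithelia, Twist1 (5126 against 2535 CPM), a mesenchymal transcription factor, and Mylk (3478 against 1761 CPM), a myosin kinase of contractile cells. Of genes with 1000 CPM or more, 14.7% were 1.5-fold or more higher and 17.1% lower with Lgr5 in RKP, and 13.3% and 21.7% in EKP. Leaving out barcodes with any of 8 skin genes (Krt5, Krt79, Krt13, Col17a1, Dsc3, Calm4, Lhx2, Tbx1) gave 982 CPM of Lgr5 in RKP fibroblast-gated barcodes and 1455 CPM in EKP ones. At Epcam 5 or more the levels without them were 1831 and 321 CPM. These 8 genes were chosen after the values were seen.

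Mki67, a protein of cycling cells, was present in 46.7%, 27.8% and 32.2% of RKP barcodes and in 36.4%, 20.7% and 25.6% of EKP barcodes along the 3 Epcam classes. Lgr5 stood with it in no uniform way. Where Epcam was 5 or more it was 2017 CPM in Mki67-positive and 1752 CPM in Mki67 0 barcodes of RKP, a ratio of 1.15 (1.13 to 1.18). In EKP the levels were 250 and 353 CPM, a ratio of 0.710 (0.656 to 0.768), and neither ratio passed the limit. With Mki67 at 2 or more the EKP log2 ratio of Lgr5 was -0.89, past the limit. At Epcam 0 to 1 the tumours went opposite ways past the limit, with ratios of 0.603 in RKP (153 against 254 CPM) and 1.62 in EKP (351 against 216 CPM), from 440 and 519 counts in the Mki67-positive barcodes. With gates on thinned counts neither passed it, at 0.830 in RKP and 1.23 in EKP. Without barcodes carrying host markers the EKP log2 ratio turned to -0.34, on the other side of 0 from its 0.70 with them. At Epcam 2 to 4 the ratios were 0.917 in RKP and 1.56 in EKP, and reading the gates from thinned counts turned the EKP log2 ratio to -0.58. The EKP ratios above the limit fell short of it under several further choices.

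Prom1 was lower with Mki67 in all 3 Epcam classes of both tumours, and the difference was past the limit at Epcam 0 to 1 only, although with Mki67 at 2 or more it also was at Epcam 2 to 4 of RKP. At Epcam 0 to 1 Prom1 was 617 CPM in Mki67-positive and 1333 CPM in Mki67 0 barcodes of RKP, and 129 and 329 CPM in those of EKP, ratios of 0.463 and 0.393. With gates on thinned counts the EKP ratio was 0.678 and missed the limit. At Epcam 5 or more it was 21164 and 25536 CPM in RKP and 6211 and 7578 CPM in EKP, ratios of 0.829 and 0.820. Epcam within the lowest class moved the same way, at 866 and 1443 CPM in RKP and 595 and 1223 CPM in EKP, and its part in the Prom1 difference was not tested. Cd44 differed by no more than 1.24 times in any class, and that largest ratio was at Epcam 0 to 1 in EKP (15250 against 12288 CPM). As counts per barcode it was 1.57 times, past the limit. Members past the limit downward were 2 of 3 in RKP at Epcam 0 to 1, where 25.2% of genes were, and 1 of 3 in EKP, where 38.7% were. Upward, Lgr5 alone passed it, at Epcam 0 to 1 and at Epcam 2 to 4 of EKP, with 6.55% and 12.6% of genes. In RKP at Epcam 0 to 1, 7.62% of genes passed it upward. Among the remaining classes no other member passed the limit: in RKP 16.9% of genes did so upward and 9.8% downward at Epcam 2 to 4, and 10.1% and 4.92% at Epcam 5 or more. In EKP 27.1% did so downward at Epcam 2 to 4, and 9.42% upward and 23.3% downward at Epcam 5 or more.

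Co-detection was counted after thinning every barcode to 80 gene counts. Only pairs of members were counted, so no share of other panel gene pairs stands beside these values. Prom1 was found more often in barcodes with Lgr5 than in those without, in all 6 classes, although in EKP at Epcam 0 to 1 the intervals overlapped. In the Epcam-rich class 84.7% of Lgr5-positive RKP barcodes held Prom1 (83.9% to 85.5%), against 77.4% of Lgr5-negative ones. In EKP the shares were 56.0% (52.6% to 59.4%) and 35.7%. At Epcam 2 to 4 they were 73.2% and 47.7% in RKP and 28.9% and 16.9% in EKP. In the lowest class they were 20.4% and 7.06% in RKP, from 86 barcodes with both, and 4.14% (2.08% to 7.28%) and 2.40% (2.16% to 2.65%) in EKP, from 11. The share with both genes was 1.08 times the product of the single shares in RKP and 1.55 times in EKP at Epcam 5 or more. It was 2.80 times in RKP and 1.70 times in EKP at Epcam 0 to 1, and 1.49 and 1.69 times at Epcam 2 to 4. Over 5 other choices of barcodes or depth the lowest class gave 1.72 to 4.76 times in RKP and 1.07 to 8.91 times in EKP, where those EKP values rest on 36 and 3 barcodes with both. The middle class gave 1.14 to 1.66 times in RKP and 1.02 to 2.33 times in EKP, and the highest 1.03 to 1.12 times and 1.33 to 1.73 times. A class holds barcodes of a range of Epcam counts and of mixed content, and their part in these shares was not tested.

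Cd44 with the other members stayed near the product of the single shares, and its direction differed between classes. The share of barcodes with Lgr5 and Cd44 was between 0.858 and 1.10 times the product over the 6 classes, and that with Prom1 and Cd44 between 0.902 and 1.06 times. Where Epcam was 5 or more, Cd44 was in 81.7% of Lgr5-positive and 80.2% of Lgr5-negative barcodes of RKP, and in 70.8% and 67.1% of those of EKP. At Epcam 2 to 4 it was in 72.7% of Lgr5-positive RKP barcodes (69.6% to 75.6%), against 65.7% of negative ones. At Epcam 0 to 1 it was in 53.0% of Lgr5-positive EKP barcodes (46.8% to 59.1%), against 61.9% of negative ones (61.2% to 62.7%). By Prom1, it was in 64.6% of positive RKP barcodes of that class (62.5% to 66.8%), against 72.2% of negative ones, and in 69.5% against 62.9% at Epcam 2 to 4. All 3 genes together were found in 8.63% of RKP barcodes and 0.827% of EKP barcodes at Epcam 5 or more. The most common combination there was Prom1 and Cd44 without Lgr5 in RKP, with 54.7%, and Cd44 alone in EKP, with 41.7%. In the lowest class Cd44 alone led in both, with 66.1% in RKP and 59.5% in EKP.

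**Figure D5:**
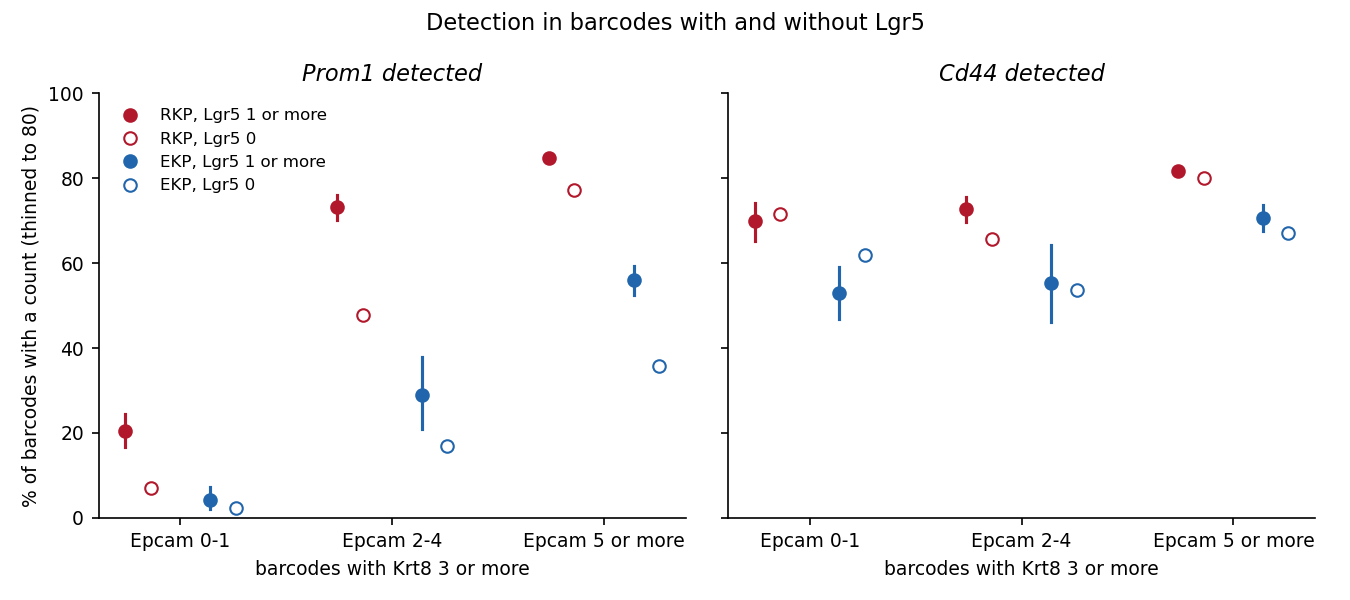
Share of barcodes with a Prom1 count (left) or a Cd44 count (right) among those with an Lgr5 count (filled) and without (open), after thinning to 80 gene counts, by Epcam class among barcodes with 3 or more Krt8 counts, RKP in red left of EKP in blue, with 95% Clopper-Pearson intervals. Prom1 lies higher with Lgr5 in all 6 classes, by 84.7% against 77.4% in RKP and 56.0% against 35.7% in EKP at Epcam 5 or more. Cd44 lies higher with Lgr5 in RKP at Epcam 2 to 4 (72.7% against 65.7%) and lower in EKP at Epcam 0 to 1 (53.0% against 61.9%).

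Tumour barcodes with Lgr5 held more of several other epithelial genes, by larger ratios in EKP than in RKP. Among barcodes at Epcam 5 or more the 845 Lgr5-positive EKP barcodes had more Slc34a2, an apical phosphate transporter (1110 against 268 CPM in the 39289 without), more Cldn2, a pore-forming claudin (3525 against 998 CPM), and more Gabrp, a GABA receptor subunit of epithelia (4425 against 1654 CPM). Of 122 genes with 1000 CPM or more there, 8.2% were 1.5-fold or more higher with Lgr5 and 7.38% lower. In RKP, 8476 positive barcodes differed less from 59427 negative ones: 0 of 131 genes were 1.5-fold or more higher with Lgr5, which is 0%, and the highest ratio was 1.42 (1.339 to 1.499), of Axin2. Cldn2 (15782 against 11335 CPM) and Gabrp (14625 against 11070 CPM) were higher with Lgr5 in RKP too, while Slc34a2 stood at 600 and 565 CPM. Axin2 encodes a scaffold of the complex that destroys beta-catenin and is a general WNT target. Axin2 stood at 2190 CPM with and 1546 CPM without Lgr5 in RKP, and 840 and 453 CPM in EKP. The lowest ratio in RKP was that of Ptprc, the pan-leukocyte gene, at 957 and 1822 CPM, and 11.5% of genes were 1.5-fold or more lower with Lgr5. The difference between the tumours in these ratios was not tested.

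The Epcam-rich barcodes were split by Prom1 in the same manner. The 53156 RKP barcodes with Prom1 after thinning had more Sftpd, a surfactant protein (1588 against 457 CPM in the 14747 without), and more Muc1, a membrane mucin (15240 against 8848 CPM). In EKP the 14510 barcodes with Prom1 had more Cldn2 (1801 against 645 CPM in the 25624 without) and more Gabrp (2802 against 1124 CPM). Gabrp was also higher with Prom1 in RKP (13110 against 7112.5 CPM). Lgr5 itself was 1.64 times higher with Prom1 in RKP (2087 against 1276 CPM) and 2.46 times in EKP (474 against 192 CPM), while Cd44 was 1.07 and 1.03 times. Of genes with 1000 CPM or more, 8.33% were 1.5-fold or more higher with Prom1 and 27.1% lower in RKP, and 5.13% and 4.27% in EKP. Ptprc was lower with Prom1 in RKP (1369 against 3102 CPM) and in EKP (685 against 1064 CPM), and the part of immune RNA in these ratios was not tested.

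Over 22 groups of barcodes (6 classes of Epcam and Mki67 and 5 host gates in each tumour), the genes whose log2 level was most like that of Lgr5 among 353 were Nbl1 (Pearson r 0.74), a secreted BMP antagonist, Axin2 (0.67) and Egfr (0.66), the epidermal growth factor receptor. For Prom1 they were Muc4 (0.99), a membrane mucin, Gabrp (0.98) and Cldn3 (0.97), a tight junction claudin. For Cd44 they were Runx2 (0.86), a transcription factor of bone and invasive epithelia, Anxa8 (0.70), an annexin, and Vegfa (0.69), an angiogenic growth factor. Groups of 1 section share its depth and its mixed RNA, so these values are descriptions without a test.

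Other genes of the members' pathways did not all go with them. Of 49 listed WNT, stem and progenitor genes 6 were on the panel, and at Epcam 5 or more 2 were 1.5-fold or more higher in RKP and 4 lower. Of all genes tested there, 21.7% were higher and 40.9% lower. The median log2 ratio was -0.75 in the list, beside -0.32 for all tested genes. Axin2 stood at 1702 CPM in RKP and 490 CPM in EKP, and Sox9, a progenitor transcription factor, at 7438 and 3499 CPM. Sox2, a transcription factor of foregut progenitors, stood at 2463 and 7242 CPM. The other 3 lower ones included the secreted WNT inhibitors Sfrp1 (282 and 447 CPM) and Wif1 (4.64 and 8.31 CPM). Wif1 lay near the highest negative control probe, at 3.09 and 3.57 CPM. The last was Sox17, a transcription factor of endoderm and of endothelial cells (28.3 and 67.3 CPM). Summed endothelial markers also were lower in RKP there, at 615 and 1165 CPM, as were summed fibroblast markers, at 16503 and 22809 CPM, and their part was not tested. Between Epcam 5 or more and Epcam 0 to 1, Axin2 was 2.27 times higher in RKP (1702 against 751 CPM) and 0.412 times in EKP (490 against 1189 CPM). Sfrp1 was lower at Epcam 5 or more in RKP (282 against 463 CPM) and in EKP (447 against 2632 CPM), and summed fibroblast markers moved the same way, at 16503 against 24689 CPM in RKP and 22809 against 51923 CPM in EKP; their part in these list values was not tested.

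Of 11 listed apical membrane genes 8 were on the panel. At Epcam 5 or more, 21.7% of all tested genes were 1.5-fold or more higher in RKP and 40.9% lower. Of the 8 apical ones 5 were higher and 0 lower, with a median log2 ratio of 0.76. They were Muc4 (16698 and 4850 CPM), Muc20 (2164 and 496 CPM), Slc34a2 (535 and 282 CPM), Cdhr5, a microvillus cadherin (150 and 9.38 CPM), and Muc13 (15.9 and 10.5 CPM). Prom2, the closest relative of Prom1, differed by 1.25 times (628 and 501 CPM). At Epcam 5 or more over Epcam 0 to 1, 6 of the 8 were higher and 0 lower in RKP, where 20.4% of all genes were higher. In EKP 5 were higher, where 14.8% of all genes were, and 1 was lower, Muc13 (10.5 against 19.3 CPM). Prom2 was 27.5 times higher in RKP and 23.3 times in EKP. Of 14 listed hyaluronan and CD44 partner genes only Mmp9, a matrix protease, was on the panel, at 2957 and 3810 CPM, a ratio of 0.776. Of 14 listed gastric gland genes 6 were on the panel, with a median log2 ratio of -0.39 at Epcam 5 or more. There 1 was higher in RKP and 3 lower, beside 21.7% and 40.9% of all tested genes. The higher one was the trefoil peptide Tff2 (146 and 11.8 CPM), and the lower ones were Muc5ac, Muc6 and Chga, an endocrine granule protein (18.6 and 36.4 CPM). Ctse, a gastric protease, was abundant in both tumours at 7814 and 7361 CPM, while the pit and gland mucins Muc5ac (9.06 and 71.5 CPM) and Muc6 (1.49 CPM, below the highest negative control probe, and 4.82 CPM) and the trefoil peptide Tff1 (35.2 and 38.8 CPM) were under 100 CPM in both, in tissue labelled as diffuse gastric cancer.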

How the data were processed

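Per the file headers the matrices are Xenium output of an unknown software version, and the authors deposited them as whole-number transcript counts per feature and barcode, without normalization. Seurat 4.4.0 is listed in the submitters' processing notes, where its use is not described. How cells were segmented, which transcripts were kept by quality and where barcodes lay: none of this is given in sources used here. The panel joined 379 standard and 100 added genes, and sections were grouped by their titles.

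Counts were summed over the barcodes of a group and scaled to counts per 1000000 gene counts (CPM) (Python 3.11.15, numpy 2.4.6, scipy 1.17.1). A gene was tested where, in at least 1 of the groups compared, it exceeded the most abundant negative control probe in the same barcodes. Where the other group lay below, the probe's level took its place. Shares over all genes tested include Krt8, Epcam, Mki67 and the host markers, also where these define the groups compared. CPM have exact Poisson intervals, ratios exact conditional binomial intervals and shares Clopper-Pearson intervals, all at 95%. Detection and co-detection of members used barcodes thinned at random to 80 gene counts, except where a share is given as unthinned. Mki67 status and host markers were read from unthinned counts. Likeness used Pearson correlation of log2(CPM + 10) over groups with 200 or more barcodes in both sections, among genes with 100 CPM or more in at least 1 of them, leaving out the gate genes and host markers. The members, the genes most like each and the genes of the listed pathways are named by rule, and members and lists were chosen with earlier results of these data known. Genes named beside Lgr5-positive barcodes lead by ratio among those with 1000 CPM or more, or are described above, and were chosen after their values were seen. B and plasma cell and mast cell lists had 1 panel marker each and gave no gate. The T cell gate held 263 barcodes in RKP and 53 in EKP and is not described. Alternatives changed the minimum of gene counts, the Krt8 limit, the gates, the scaling, the background, mixed barcodes and the limit of size. The scripts were tested on simulated counts.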

Additional observations from a re-analysis of the deposited data

Results flagged for a closer look

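Lgr5 in barcodes with 3 or more Krt8 counts over host-gated barcodes had a log2 ratio of 1.33 in RKP and -1.62 in EKP, opposite directions past 1.5-fold in the 2 tumours. Over fibroblast-gated barcodes alone, Lgr5 at Epcam 5 or more had log2 ratios of 0.74 in RKP and -2.16 in EKP. With Mki67 at Epcam 0 to 1, Lgr5 had log2 ratios of -0.73 in RKP and 0.70 in EKP. The difference between the tumours was not tested in any of these, since each has 1 section.

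Barcodes under 80 gene counts, which the report does not use, held all 3 members above the highest negative control probe, which stood at 9.95 CPM in RKP and 68.1 CPM in EKP there. In the 54297 RKP barcodes Lgr5 stood at 574 CPM, Prom1 at 4187 CPM and Cd44 at 14864 CPM. In the 127938 EKP barcodes Lgr5 stood at 676 CPM, Prom1 at 1326 CPM and Cd44 at 13788 CPM.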

How the results depend on the processing

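With 1 section per group no replicate could be left out. No paired analysis was possible because each group has 1 section and no result comes from a test between replicates. Of 401 counts of members past the limit recomputed under alternatives, 372 stayed within 1.5 times and 29 did not. Of 543 log2 ratios of single members recomputed, 257 stayed within the counting interval of the reported value, 284 moved beyond it and 2 called ones reversed. By size, 31 of the 543 moved by over 1.5 times and 24 changed their side of the limit. Where a cause is not named, the cause was not tested. Among RKP over EKP counts, the lower count at Epcam 0 to 1 and that in fibroblast-gated barcodes went to 1 with a minimum of 160 gene counts, and the higher count at Epcam 0 to 1 went to 2 with gates on thinned counts and without host-marker barcodes. For Epcam 5 or more over Epcam 0 to 1 in EKP the higher count went to 2 with Krt8 6 or more and without host-marker barcodes. For Mki67 in EKP at Epcam 0 to 1, the higher count went to 0 with a minimum of 160, Krt8 6 or more, gates on thinned counts, no host-marker barcodes, a fixed band of middle depth and a 2-fold limit, and to 2 with counts per barcode, while the lower count went to 0 with gates on thinned counts. At Epcam 2 to 4 in EKP the higher count went to 0 with Krt8 6 or more, gates on thinned counts, barcodes weighted alike, no host-marker barcodes, the band of middle depth and a 2-fold limit. In RKP at Epcam 0 to 1 the lower count went to 1 with gates on thinned counts, counts per barcode and a 2-fold limit. With Mki67 2 or more, the lower counts in RKP at Epcam 2 to 4 (Prom1) and in EKP at Epcam 5 or more (Lgr5) went to 1. With a 2-fold limit the higher counts of EKP against host-gated and against fibroblast-gated barcodes went to 1. Pairs co-detected at 1.5 times the product or more went to 1, where 4 were counted, with a minimum of 160 and with no thinning. Other gene pairs were not counted. Lgr5 with Mki67 in EKP reversed to -0.58 (log2) at Epcam 2 to 4 with gates on thinned counts and to -0.34 at Epcam 0 to 1 without host-marker barcodes. The log2 ratio of RKP over EKP at Epcam 5 or more ranged over 2.45 to 3.20 for Lgr5, 1.67 to 2.01 for Prom1 and 0.50 to 0.65 for Cd44.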
